A study of Arabidopsis thaliana with 12 samples.

Results

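CSLA01, GH9B11 and GH9B12 are 3 Arabidopsis thaliana genes of enzyme families that act on the polysaccharides of the cell wall. They were taken by name from the spots that the platform annotation pairs with a single gene, and each has 1 such spot among 692 single-gene spots and 3439 spots in all. RNA of the toc34 mutant and of wild type (WT), both in the ecotype Columbia 0, was measured on 12 arrays, 6 per genotype. The labels describe the mutant as impaired in protein import across the outer chloroplast envelope, and they name no tissue, age or growth condition, no mutant allele, and nothing on whether each array had its own plants. The spread between arrays may therefore be technical. The genes were chosen by name with their array intensities in toc34 and WT already known, so their own differences between genotypes are described here without a p-value. Where they are said to pass a fit over all spots, nothing is read from it.

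The plant cell wall is built of cellulose microfibrils in a matrix of hemicelluloses and pectins. Enzymes of the cellulose synthase-like A (CSLA) family work in the Golgi apparatus, where characterised members join mannose and glucose into the backbone of mannans and glucomannans, which are hemicelluloses. Enzymes of the GH9 family are endo-1,4-beta-glucanases, which cut glucan chains inside the chain. In plants the GH9A class is anchored in the membrane, the GH9B class is secreted as a catalytic domain, and the GH9C class carries an added carbohydrate-binding module. The annotation gives CSLA01 the locus AT4G16590, GH9B11 the locus AT2G44560 and GH9B12 the locus AT2G44570. In the RefSeq gene table of TAIR10.1, GH9B11 and GH9B12 are direct neighbours, with GH9B10 and then GH9B9 on the other side of GH9B11.

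The deposited values are intensities on a linear scale with no stated unit, running from 0 to a ceiling of 100. Summed intensity ran from 1987.7 on toc34 replicate 5 to 3553.3 on WT replicate 4, and was highest for replicates 3 and 4 in both genotypes. Arrays with neighbouring replicate numbers (1 and 2, 3 and 4, 5 and 6) resembled each other across spots more than other arrays of their genotype did, with correlations of 0.937 to 0.956 against 0.893 to 0.922 in WT and of 0.841 to 0.889 against 0.776 to 0.809 in toc34. Values are therefore also given by neighbouring numbers. In the fit over all spots, 475 spots were higher and 522 lower in toc34 of 2768 tested (limma on quantile-normalized log2 intensity, Benjamini-Hochberg adjusted p under 0.05), and on the deposited scale 335 were higher and 590 lower. No single-gene spot of TOC34 was used here, so the genotype labels have no check here.

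CSLA01, of the family of mannan-type backbone synthases, lay at the bottom of the measurable range in WT and was several times brighter in toc34. Its deposited intensity on WT replicates 1 to 6 was 0.0261, 0.0217, 0.0331, 0.0275, 0.0249 and 0.0275. On toc34 replicates 1 to 6 it was 0.0810, 0.0619, 0.169, 0.177, 0.0981 and 0.0810. Every toc34 array was above every WT array, and toc34 replicates 3 and 4 were the highest. The mean was 0.0268 ± 0.00378 in WT and 0.111 ± 0.0491 in toc34 (SD, n = 6 arrays each). After normalization the log2 difference, toc34 minus WT, was 2.22 (SE 0.23), a 4.66-fold difference. That difference ranked 43 among the 2768 tested spots and 9 among the 551 tested spots with a single gene. Its SE, like those of GH9B11 and GH9B12 below, takes the 6 arrays of a genotype as independent. With neighbouring numbers averaged the SE was 0.34.

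The WT level of CSLA01 was close to the low end of what these arrays recorded. Between 122 and 212 of the 2845 to 2974 spots above 0 on a WT array were dimmer, which put CSLA01 between the 4.1 and the 7.4 percentile. In toc34 it lay between the 17.4 percentile, on replicate 2, and the 41.6 percentile, on replicates 3 and 4, so it stayed below the median spot of every array. It was above 0 on all 12 arrays. With an offset of 0.0216 added to every value before the logarithm, an amount about as large as the WT intensity itself, the log2 difference of CSLA01 was 1.67 (SE 0.23). The sources used here do not say how background was subtracted, so the size of the ratio depends on a step that cannot be seen. The spread of CSLA01 within a genotype was 0.40 on the log2 scale, against a median of 1.15 for the 277 tested spots in the dimmest decile of brightness, to which it belongs. CSLA01 was chosen with its values known, and neighbouring arrays may be technical repeats, so nothing is read from that small spread. The same holds for the spreads of GH9B11 and GH9B12 below.

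**Figure D1:**
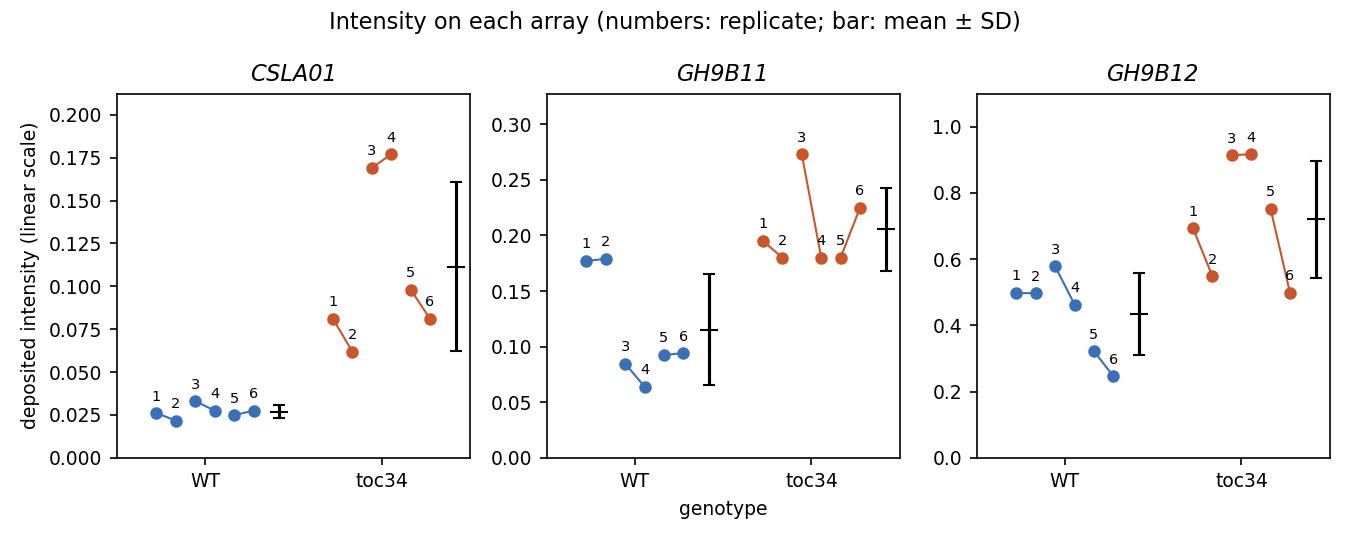
Deposited intensity (linear scale, starting at 0) of CSLA01, GH9B11 and GH9B12 on each of the 6 WT and 6 toc34 arrays; numbers are replicates, lines join neighbouring numbers, and the black bars give the mean ± SD. CSLA01 runs from 0.0217 to 0.0331 in WT and from 0.0619 to 0.177 in toc34, while WT replicates 1 and 2 of GH9B11 lie just below the lowest toc34 arrays.

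GH9B11, of the GH9B class of secreted endoglucanases, was higher in toc34, by little on replicates 1 and 2 and by more on the others. Its deposited intensity on WT replicates 1 to 6 was 0.177, 0.179, 0.0847, 0.0639, 0.0925 and 0.0942. On toc34 replicates 1 to 6 it was 0.195, 0.180, 0.273, 0.180, 0.180 and 0.225. WT replicates 1 and 2 reached almost the lowest toc34 value, and the other 4 WT arrays lay well below it. The mean was 0.115 ± 0.0497 in WT and 0.205 ± 0.0375 in toc34 (SD, n = 6 arrays each). The normalized log2 difference was 1.05 (SE 0.28), or 2.07-fold. The genotypes did not overlap in deposited intensity, but after normalization they did, since toc34 replicate 4 fell to -2.71, below WT replicates 1 (-2.51) and 2 (-2.49).

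GH9B11 was of middling to low brightness. It lay between the 15.6 and the 47.8 percentile of spots above 0 in WT and between the 42.2 and the 62.7 percentile in toc34. WT replicates 3 to 6 were all under the 25 percentile, at 21.9, 15.6, 23.1 and 24.0, and WT replicates 1 and 2 were at 47.3 and 47.8. Its spread within a genotype, 0.49, was a little under the median of 0.56 for the 276 spots in its decile of brightness. The log2 gap between neighbouring numbers was at most 0.53, on toc34 replicates 3 and 4, while the WT arrays together ran from -4.05 to -2.49.

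GH9B12, the neighbouring gene of the same class, was moderately bright and was also higher in toc34. Its deposited intensity on WT replicates 1 to 6 was 0.498, 0.497, 0.578, 0.463, 0.322 and 0.246. On toc34 replicates 1 to 6 it was 0.694, 0.549, 0.914, 0.917, 0.752 and 0.498. These values overlapped, since toc34 replicates 2 and 6 lay below WT replicate 3, and after normalization they no longer did, with WT between -1.98 and -0.96 and toc34 between -0.71 and 0.09. The mean was 0.434 ± 0.124 in WT and 0.721 ± 0.177 in toc34 (SD, n = 6 arrays each). The normalized log2 difference was 0.92 (SE 0.21), or 1.89-fold. GH9B12 lay between the 60.3 and the 78.0 percentile of spots above 0 in WT and between the 81.1 and the 88.9 percentile in toc34, above the median spot on all 12 arrays. Its spread within a genotype was 0.34, close to the median of 0.37 in its decile of brightness.

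**Figure D2:**
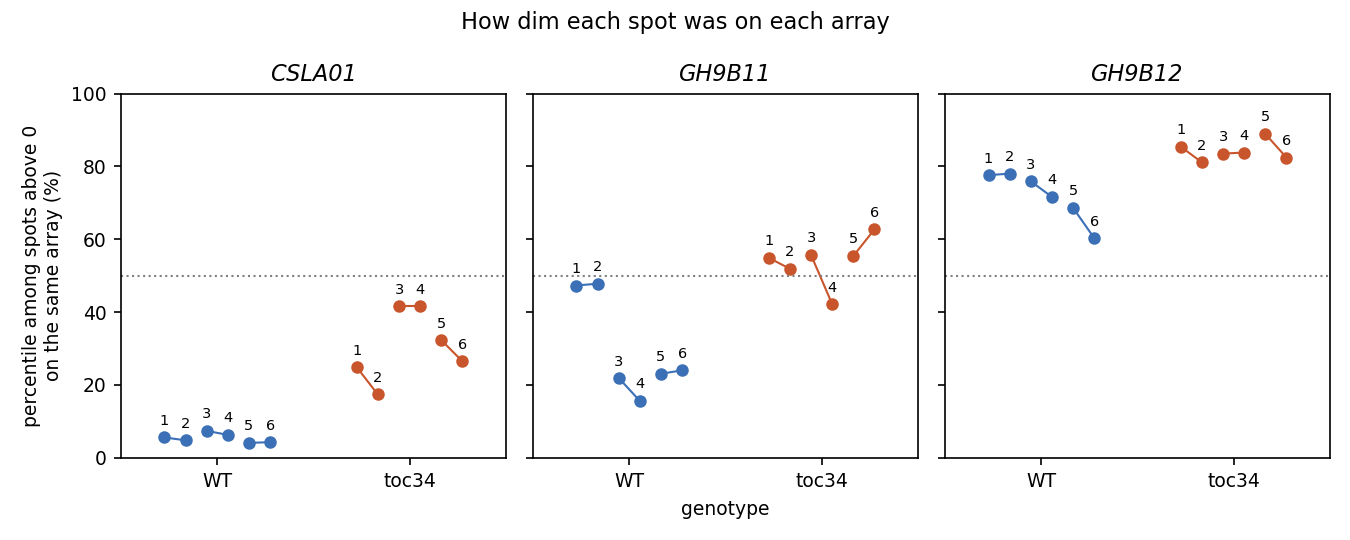
Percentile of CSLA01, GH9B11 and GH9B12 among the spots above 0 on the same array (vertical axis, percent), for the 6 WT and 6 toc34 arrays; numbers are replicates and the dotted line marks the median spot. CSLA01 stays under the line on all arrays, with WT between 4.1 and 7.4, GH9B11 lies on both sides of it and GH9B12 stays above it.

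In the fit over all spots, the 3 genes were 3 of the spots called, all higher in toc34, where 36.0% of tested spots were called in either direction and 17.2% were called higher. The genotypes did not overlap for 2 of the 3 genes in deposited intensity (CSLA01 and GH9B11), against 7.08% of tested spots that were wholly higher in toc34, and for 2 of the 3 after normalization (CSLA01 and GH9B12), against 11.5%. The genes were picked with this contrast known, so nothing is read from these counts or from the calls of the 3 genes that follow. When neighbouring arrays were averaged, which left 3 values per genotype, CSLA01 alone of the 3 was called, where 12.3% of tested spots were called. When neighbouring arrays formed a random block all 3 were called, beside 22.6% of spots. The SEs of CSLA01, GH9B11 and GH9B12 were 0.34, 0.39 and 0.28 after averaging and 0.27, 0.32 and 0.28 in the random block. In the fit over all spots, which takes arrays as independent, they were 0.23, 0.28 and 0.21.

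The difference between genotypes was not equal across the neighbouring numbers. For CSLA01 the toc34 mean was 2.99 times the WT mean in replicates 1 and 2, 5.70 times in 3 and 4 and 3.42 times in 5 and 6, with normalized log2 differences of 1.79, 2.35 and 2.52. For GH9B11 the ratio was 1.06 in replicates 1 and 2, 3.05 in 3 and 4 and 2.17 in 5 and 6, with differences of 0.23, 1.41 and 1.52. The genotypes were thus nearly level for GH9B11 in replicates 1 and 2, where the WT mean was 0.178 and the toc34 mean 0.188. For GH9B12 the ratios were 1.25, 1.76 and 2.20 in the same order, with differences of 0.46, 0.77 and 1.52. All 3 genes had their smallest normalized difference in replicates 1 and 2, and whether the differences vary between these sets beyond error was not tested.

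**Figure D3:**
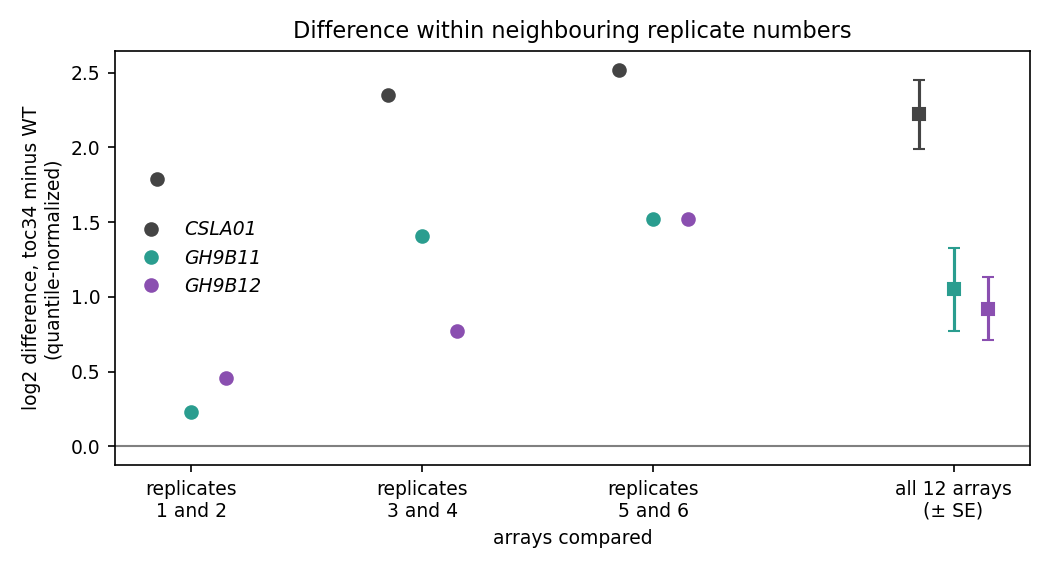
Log2 difference of quantile-normalized intensity, toc34 minus WT, for CSLA01, GH9B11 and GH9B12 within each set of neighbouring replicate numbers (circles, means of 2 arrays per genotype) and over all 12 arrays (squares, ± SE with arrays taken as independent). In replicates 1 and 2 the difference is 1.79 for CSLA01, 0.23 for GH9B11 and 0.46 for GH9B12.

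The difference of each gene was close to the same on 3 scales once the shift of all spots was taken off. That shift, the median log2 difference over all spots, was -0.05 with quantile normalization, -0.20 for unscaled values and -0.10 for arrays centred on their medians. Relative to it, CSLA01 stood at 2.27, 2.15 and 2.15 on these scales, GH9B11 at 1.10, 1.13 and 1.12 and GH9B12 at 0.97, 0.95 and 0.95. In RNA of whole samples, a change in the number of cells that express a gene and a change in RNA per cell cannot be told apart.

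The spots whose patterns lay nearest to each gene were found by the root-mean-square gap between gene-centred normalized log2 levels over the arrays where both were measured. Levels were centred over both genotypes, so the gap includes the difference between genotypes that was known when the 3 genes were chosen. A near spot is thus largely one with a like difference, such as 2.23 for AGL103 beside 2.22 for CSLA01. The gaps and ranks are a description, and shared regulation was not tested. Nearest to CSLA01 among 541 single-gene spots were AGL103, a MADS-box transcription factor gene, at a gap of 0.33 over 12 arrays, then AT2G28200 at 0.36 over 10 arrays and AT5G34870 at 0.39, where the median spot had a gap of 1.33. Nearest to GH9B11 was GLDH, which encodes the last enzyme of ascorbate synthesis, at 0.25, then AT2G39360 at 0.35 and AT4G22830 at 0.37, against a median gap of 0.91. AT4G22830 was at the ceiling on 5 of the 6 toc34 arrays, so its pattern there is only a bound. Nearest to GH9B12 were AT1G11730 at 0.25, AT3G09080 at 0.27 and AT2G39360 at 0.28, against a median of 0.83. Among the 3 genes themselves, GH9B11 and GH9B12 had a gap of 0.43, which made GH9B12 number 6 in nearness to GH9B11 and GH9B11 number 28 to GH9B12. From CSLA01, GH9B12 lay at 0.75 (number 35) and GH9B11 at 0.87 (number 68), and CSLA01 was number 237 to GH9B11 and 225 to GH9B12.

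Both GH9B genes also share a spot that the annotation lists for GH9B9, GH9B10, GH9B11 and GH9B12 together. On WT replicates 1 and 2 its intensity was 0.128 and 0.108, on 3 and 4 it was listed at 0, and on 5 and 6 it was 0.0228 and 0.0242. On toc34 replicates 1 to 5 it was 0.152, 0.117, 0.0873, 0.157 and 0.112, and on replicate 6 it was listed at 0. As for GH9B11, the WT values were highest on replicates 1 and 2. In deposited intensity GH9B12 did not share this: on WT replicates 3 and 4 its own spot read 0.578, its highest WT value, and 0.463. Those arrays also had the highest summed intensity. After normalization the GH9B12 spot was highest in WT on replicates 1 and 2, at -0.99 and -0.96, against -1.11 on replicate 3. On toc34 replicate 6, where the shared spot was at 0, the spots of GH9B11 and GH9B12 read 0.225 and 0.498. The log2 difference of the shared spot, 1.54 (SE 0.67, limma adjusted p = 0.101), rests on 4 WT and 5 toc34 arrays and did not pass the test. A spot listed for GH9B9 and GH9B10, measured on all 12 arrays, differed by 0.81 (SE 0.56, adjusted p = 0.284), and its WT values on replicates 1 and 2, 0.140 and 0.135, were again the highest WT values. That pattern was not particular to these genes. In WT, a spot listed for GH9B14 and GH9B15 (0.210 and 0.196) and one listed for 4 CSLC genes (0.0899 and 0.0893) were also highest on replicates 1 and 2. The other tested shared spots had their highest WT intensity on another replicate. Because GH9B9 to GH9B12 lie side by side and share spots in the annotation, signal of one may be read on the spot of another, which was not tested.

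Of the other genes on lists of wall enzymes, 2 had a spot of their own, GH9B8 and GH9B16, both of the GH9B class, and both were too often at 0 to enter the fit. GH9B8 was above 0 on 4 WT arrays, at 0.00738 to 0.0612, and on 1 toc34 array, at 0.0175. GH9B16 was above 0 on 3 WT arrays, reaching 0.0505, and on 5 toc34 arrays, where replicates 1 and 2 had 0.244 and 0.283, replicate 3 had 0.00334 and replicate 4 was at 0. With the offset, which lets both be tested among 3439 spots of which 30.2% were called, the differences were -0.67 for GH9B8 (limma adjusted p = 0.164) and 1.73 for GH9B16 (adjusted p = 0.0623), so 0 of the 2 passed and 1, GH9B16, had an unadjusted p under 0.05. The list of backbone synthases, to which CSLA01 belongs, had 0 other single-gene spots and 2 shared ones. The lists for pectin, callose, nucleotide sugars and wall-anchored proteins had 0 spots of either kind.

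Spots listed for several genes of one list numbered 10, of which 8 were tested, with a median log2 difference of -0.18. Of these, 0 were called higher, 3 were called lower and 5 were not called, with differences from -1.53 to 1.54. Among all tested spots 36.0% were called, 17.2% were called higher, and the median was -0.05. The 3 of 8 called are close to the share called in either direction among all spots. All 3 were lower, where 522 of the 2768 tested spots were called lower, and so few spots say little on direction. Of the 8 tested, 1 uncalled spot also lists GH9B11 and GH9B12. A spot listed for EXLA2 and EXLB1 was called higher under 5 of 21 alternatives, and a spot listed for GH9B16 to GH9B18, which did not enter the fit, was called higher under the 3 alternatives that tested it. Of the 3 called lower, 1 was a spot of GH9C2 and GH9C3, the glucanase class with a carbohydrate-binding module (-0.40, SE 0.14, limma adjusted p = 0.0437). That call ended with neighbouring numbers averaged (adjusted p = 0.285), in the random-block fit (0.143) and in the fit blocked on replicate number (0.0960). A spot listed for CSLC5, CSLC6 and ATCSLC08, of the family that makes the xyloglucan backbone, fell by 0.63 on the log2 scale (-0.63, SE 0.17, adjusted p = 0.0115), and that call ended with neighbouring numbers averaged (adjusted p = 0.172). The other spot of this family, listed for 4 CSLC genes, differed by -1.53 (SE 0.83, adjusted p = 0.182), and it was listed at 0 on 2 toc34 arrays.

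**Figure D4:**
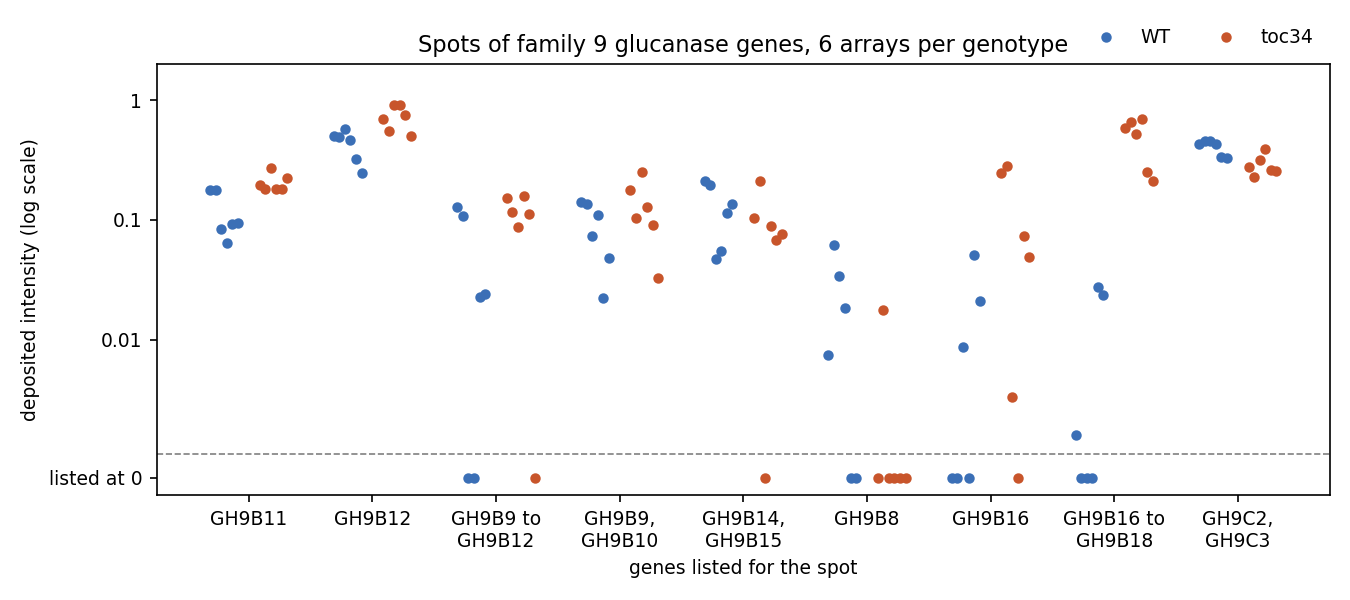
Deposited intensity (log scale; values listed at 0 are drawn below the dashed line) of every spot whose listed genes all belong to the GH9 family and that was above 0 on any array, 6 WT arrays in blue and 6 toc34 arrays in orange, in order of replicate number. The spot listed for GH9B16 to GH9B18 reads at most 0.0275 in WT and at least 0.211 in toc34, and GH9B8 is at 0 on 5 of 6 toc34 arrays.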

How the data were processed

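The deposited table holds 1 intensity per spot and array; that the values are linear intensity was judged from the deposited values themselves. Background subtraction, scaling, labelling and scanner are not given in the sources used here. Values of 0 were taken as missing, log2 intensity was quantile-normalized, and spots with at least 4 measured arrays per genotype were compared with limma 3.58.1 (lmFit, eBayes; R 4.3.3), two-sided, without covariates, with Benjamini-Hochberg adjustment over 2768 spots at 0.05. The random block used duplicateCorrelation (statmod 1.5.0, consensus correlation 0.535). The procedure was tested on simulated data with independent noise on each array, made from spots measured on all 12 arrays. That setting leaves out the likeness of neighbouring replicate numbers, so it cannot show the error rate of the calls in these data. The number of arrays limits the precision.

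Gene names came from the platform annotation of 2016, updated through gene identifiers with the RefSeq table of TAIR10.1, which matched 690 of 692 single-gene spots. Lists of wall genes were patterns on symbols and synonyms in that table. The members and lists were chosen with earlier results of these data known. Named were the 3 members, list genes with a spot of their own, and the 3 nearest single-gene patterns per member over at least 10 arrays; GH9B8 and GH9B16, not tested in the fit, and the shared spots were added after their values were seen.

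For replicates 1 to 6, the WT and toc34 arrays of one number deviated from the mean of their genotype with correlations of 0.12, 0.16, 0.22, 0.24, 0.16 and 0.14. All were over the 0.1 set for a pairing, so a fit blocked on replicate number (the replicate block) was added. Arrays of unequal number were not compared in this way, so these values cannot show a pairing by number. The labels themselves state no pairing.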

Additional observations from a re-analysis of the deposited data

How the results depend on the processing

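Under 21 alternatives the log2 differences of all 3 genes stayed positive, at 1.67 to 2.36 for CSLA01, 0.89 to 1.21 for GH9B11 and 0.75 to 0.99 for GH9B12. Only that of CSLA01 with the offset, 1.67, moved by more than its spread within genotypes; the offset is nearly as large as its WT intensity. With 1 array left out the ranges were 2.11 (without toc34 replicate 3) to 2.36, 0.89 (without WT replicate 4) to 1.21 and 0.79 (without WT replicate 6) to 0.99. All alternatives reused these arrays, and the genes were chosen with their differences known, so the kept sign adds no independent evidence. The count of 997 called spots was 863 to 996 with 1 array left out, 625 with neighbouring numbers as a random block and 359 with them averaged, which leaves fewer values. The replicate block gave 1010 calls and log2 differences of 2.22, 1.05 and 0.92 for the 3 genes, and among the spots given here it ended only the call of the GH9C spot. That call also ended without any 1 of the 6 WT arrays or of toc34 replicates 2, 3 and 4 (adjusted p from 0.0541 to 0.0947). The uncalled spot listed for GH9B14 and GH9B15 (0.04, adjusted p = 0.956) turned sign on the deposited scale (-0.12), with the offset (-0.44), the replicate block (-0.20), the random block (-0.0043) and averaging (-0.036), and ran from -0.24 to 0.24 with 1 array left out; the cause was not tested. No gene of the lists with a spot of its own other than the 3 was called by limma under any alternative that tested it. In 22 sets of log2 intensities, made of the 3 genes and the tested shared spots in each genotype, 0 had an array far from the others by Dixon's ratio. The ratio weighs 1 extreme array, so it can miss 2 neighbouring arrays that deviate together. For GH9B11 in WT it was 0.273, on replicate 4. There WT replicates 1 and 2, at 0.177 and 0.179, lay apart from the other WT arrays, which reached 0.0942.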

Other observations

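The spot listed for GH9B16, GH9B17 and GH9B18 was too often at 0 in WT to enter the fit. It was listed at 0 on WT replicates 2, 3 and 4 and had 0.00160, 0.0275 and 0.0237 on WT replicates 1, 5 and 6. On toc34 replicates 1 to 6 it had 0.590, 0.661, 0.518, 0.700, 0.252 and 0.211, so every toc34 array was above every WT array. With the offset its log2 difference was 4.31 (SE 0.25, limma adjusted p = 3.95e-07), the 3rd highest of 3439 spots, where 30.2% of spots were called. Since WT was at 0 or near the lowest measured values, the offset largely sets the size of that difference, and no fold is given. The spot of GH9B16 alone did not follow it on toc34 replicates 3 and 4, where it read 0.00334 and 0. The spot was singled out after its values were seen.

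Among spots of hemicellulose enzymes, one listed for TBL24 and TBL23, of the TRICHOME BIREFRINGENCE-LIKE family, whose characterised members add acetyl groups to wall polysaccharides, was 3.54-fold lower in toc34 by limma, with a log2 difference of -1.82 (SE 0.27, adjusted p = 0.000255). Its intensity ran from 1.04 to 3.03 in WT and from 0.324 to 0.735 in toc34. The call held with neighbouring numbers averaged (adjusted p = 0.0347) and as a random block (0.00141). A spot listed for the expansin-like genes EXLA2 and EXLB1 differed by 0.67 (SE 0.25, adjusted p = 0.0512), and its adjusted p ran from 0.0160 to 0.240 over the alternatives.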
